A study of Mus musculus with 14 samples.

Results

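The homeostatic microglia core genes described here are *P2ry12*, *P2ry13*, *Tmem119*, *Cx3cr1*, *Sall1*, *Siglech*, *Gpr34*, *Olfml3* and *Selplg*. They are 9 of the 33939 genes in the deposited table, were chosen by name as genes that resting microglia express far above other brain cells, and were matched to the table by Ensembl identifier. All 9 passed the filter on low values in every comparison. Their levels were measured by bulk RNA-seq of CD11b+ cells, taken with magnetic beads from the ipsilateral, injured (IL) and contralateral (CL) hemispheres 3 days after traumatic brain injury (TBI). All mice were tamoxifen-treated male C57BL/6 mice of 8 to 12 weeks. Control (Ctrl) mice were Cx3cr1-CreER+/-, and knockout (cKO) mice were Cx3cr1-CreER+/-;Nhe1flox/flox, in which tamoxifen deletes the floxed gene in cells that express the Cre. There were 4 Ctrl CL and 4 Ctrl IL libraries from the same 4 mice (numbers 3541, 3545, 3546 and 3551). The 3 cKO CL libraries came from mice 788, 791 and 3592, and the 3 cKO IL libraries from mice 784, 791 and 3592, so that 6 of the 8 numbered mice gave both hemispheres. Numbers 784 and 788 occur once each, and whether they are different animals could not be told from the labels, so no value below pairs them. Values below are listed in these orders of mice. The promoter of *Cx3cr1*, itself one of the core genes, drives the CreER transgene in every mouse of both genotypes. Libraries of uninjured mice were not analysed here, so the CL hemisphere is the uninjured side of an injured brain.

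The values are CPM, reads per 1e+06 reads assigned to genes. The depth, with M for 1e+06, was 12.2 to 41.6 M assigned reads per library with a median of 34.2 M, and Ctrl IL of mouse 3546 was the shallowest. Every adjusted p below is from limma with Benjamini-Hochberg adjustment. *Itgam*, which encodes the CD11b used for the sort, ranged from 650.3 to 1714 CPM over the 14 libraries. The Ctrl libraries stood apart in 2 sets of mice. *Itgam* measured 650.3 and 849 CPM in CL and 749.9 and 771 CPM in IL of mice 3541 and 3545, against 1250.0 and 1714 CPM and 1385 and 1439 CPM in mice 3546 and 3551. In deviations from group means over all genes, every pair of an IL and a CL library from different sets correlated negatively (-0.530 to -0.186), and pairs of different mice of the same set positively (0.0458 to 0.499). The labels give no batch that matches the sets. Ratios of IL to CL within a mouse do not mix them, but fits without a mouse term and comparisons of genotypes pool both sets.

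Microglia are the resident macrophages of the brain. In the uninjured brain they keep long moving processes and express a set of surface receptors that sense nucleotides, lipids and the chemokine fractalkine, together with transcription factors that hold this state. TGF-β signalling through SMAD proteins, the myeloid factor PU.1 (*Spi1*) and the zinc-finger factor SALL1 are known to maintain the program. Some of the genes are widely used to tell microglia from macrophages that enter from blood. Blood monocytes also express *Cx3cr1*, and other leukocytes carry the product of *Selplg*. Reactive microglia are known to lower many of the core genes.

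Promoter sequences show the stretch from which such factors can act, and are given for 5 of the genes, with the letters of 3 motifs in capitals. The motifs, searched on both strands, were the core of the PU-box bound by PU.1 (GAGGAA), that of RUNX factors (TGTGGT, or ACCACA on the other strand) and the SMAD box (CAGAC, or GTCTG on the other strand). Each sequence is the 250 bases before a RefSeq start on build GRCm38.p6, read 5′ to 3′ towards the gene. *P2ry12*, *P2ry13*, *Siglech* and *Cx3cr1* are shown as genes that were lower in IL hemispheres, and *Olfml3* as the gene that was not called lower there in either genotype. *P2ry12* lies at chr3:59262986-59263235, minus strand, *P2ry13* at chr3:59210883-59211132, minus strand, *Siglech* at chr7:55767934-55768183, plus strand, *Cx3cr1* at chr9:120068297-120068546, minus strand and *Olfml3* at chr3:103738002-103738251, minus strand.
P2ry12: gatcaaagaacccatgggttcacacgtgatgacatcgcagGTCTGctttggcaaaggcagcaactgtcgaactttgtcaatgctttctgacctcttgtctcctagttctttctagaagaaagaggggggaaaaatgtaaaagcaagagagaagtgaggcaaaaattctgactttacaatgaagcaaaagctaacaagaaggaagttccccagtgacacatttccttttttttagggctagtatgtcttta
P2ry13: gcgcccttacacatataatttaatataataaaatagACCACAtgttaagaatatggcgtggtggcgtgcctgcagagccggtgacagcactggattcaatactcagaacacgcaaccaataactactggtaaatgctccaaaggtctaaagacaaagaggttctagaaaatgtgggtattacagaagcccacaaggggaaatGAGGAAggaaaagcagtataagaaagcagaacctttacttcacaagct
Siglech: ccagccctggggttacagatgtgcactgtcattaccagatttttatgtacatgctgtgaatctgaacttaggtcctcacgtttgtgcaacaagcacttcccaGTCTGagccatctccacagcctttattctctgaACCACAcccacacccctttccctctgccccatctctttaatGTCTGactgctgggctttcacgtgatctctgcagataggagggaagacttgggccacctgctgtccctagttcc
Cx3cr1: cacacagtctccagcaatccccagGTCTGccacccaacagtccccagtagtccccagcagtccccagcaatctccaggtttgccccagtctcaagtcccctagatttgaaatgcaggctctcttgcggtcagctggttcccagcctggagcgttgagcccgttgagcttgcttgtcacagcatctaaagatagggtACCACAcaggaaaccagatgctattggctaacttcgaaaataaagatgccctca
Olfml3: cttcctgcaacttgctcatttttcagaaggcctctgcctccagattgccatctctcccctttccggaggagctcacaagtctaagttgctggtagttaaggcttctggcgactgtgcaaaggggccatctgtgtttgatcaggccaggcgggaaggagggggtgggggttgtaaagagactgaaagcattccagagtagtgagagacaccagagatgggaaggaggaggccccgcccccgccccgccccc
The table held 8 promoters for 6 of the genes, *Sall1* having 3. GAGGAA was found in 1 of the 8, that of *P2ry13*, 48 bases before the start, and in 23.3% of all 32851 promoters. TGTGGT, all as ACCACA, was found in 3 of the 8 (*P2ry13*, *Siglech* and *Cx3cr1*) and in 14.05% of all promoters. CAGAC or GTCTG was found in 4 of the 8 (*P2ry12*, *Siglech*, *Cx3cr1* and *Sall1*) and in 42.2% of all promoters. None of the matches overlapped. The *Olfml3* window and 2 of the 3 *Sall1* windows held no match to these letters.

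Some of the genes are neighbours in the GENCODE M21 annotation of GRCm38. *P2ry13* (chr3:59207892-59210882) and *P2ry12* (chr3:59216272-59262871) lie side by side on the minus strand inside *Med12l*, a Mediator subunit gene on the opposite strand. *Tmem119* (chr5:113793729-113800516) and *Selplg* (chr5:113818536-113832644) are also side by side on the minus strand. *Olfml3* lies at chr3:103722222-103738001, *Cx3cr1* at chr9:119901616-120069879, *Sall1* at chr8:89027235-89044162, *Siglech* at chr7:55768178-55778925 and *Gpr34* at chrX:13632089-13640858. The libraries do not mark strand, and *P2ry12* shares 9 exonic bases with *Med12l* and *Cx3cr1* shares 78 with the antisense gene *Gm33858*. In 7 of the genes no transcript stretch of at least 100 bases matched another gene at 90% identity. *Olfml3* and *Selplg* had matches of up to 188 and 204 bases, none reaching 95%, to 50 and 115 other genes.

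The core genes were among the most abundant messages of the sorted cells. Divided by merged exon length, the mean level in Ctrl CL was highest for *P2ry12* (1717 ± 277 CPM per kilobase, SD, n = 4), followed by *Tmem119* (1526 ± 420) and *Selplg* (1447 ± 169), whose ranges over libraries overlapped those of their neighbours in this order. *P2ry13* (843 ± 135) and *Gpr34* (838 ± 146) came next, with ranges apart from those of *P2ry12* and *Selplg* but overlapping that of *Tmem119*. *Olfml3* (487 ± 79.5), *Cx3cr1* (475 ± 101) and *Siglech* (419.5 ± 75.7) overlapped each other, and *Sall1*, a transcription factor, was lowest at 57.9 ± 20.1 CPM per kilobase. By this measure *P2ry12* ranked 19 and *Sall1* ranked 820 among the 33802 genes with an annotated length. In Ctrl IL the ranks were 60 for *P2ry12* and 1780 for *Sall1*. In cKO CL, *Olfml3* stood in place 8 of the 9 genes, at 227 ± 43.2 CPM per kilobase, below *Siglech* in every library. That place depends on the merged exon length, 6161 bases for *Olfml3* and 3383 for *Siglech*. In CPM, *Olfml3* was above *Siglech* in cKO CL of mice 788 (1613 against 1323) and 791 (1483 against 1167). It was below *Siglech* in mouse 3592 (1101 against 1168).

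**Figure D1:**
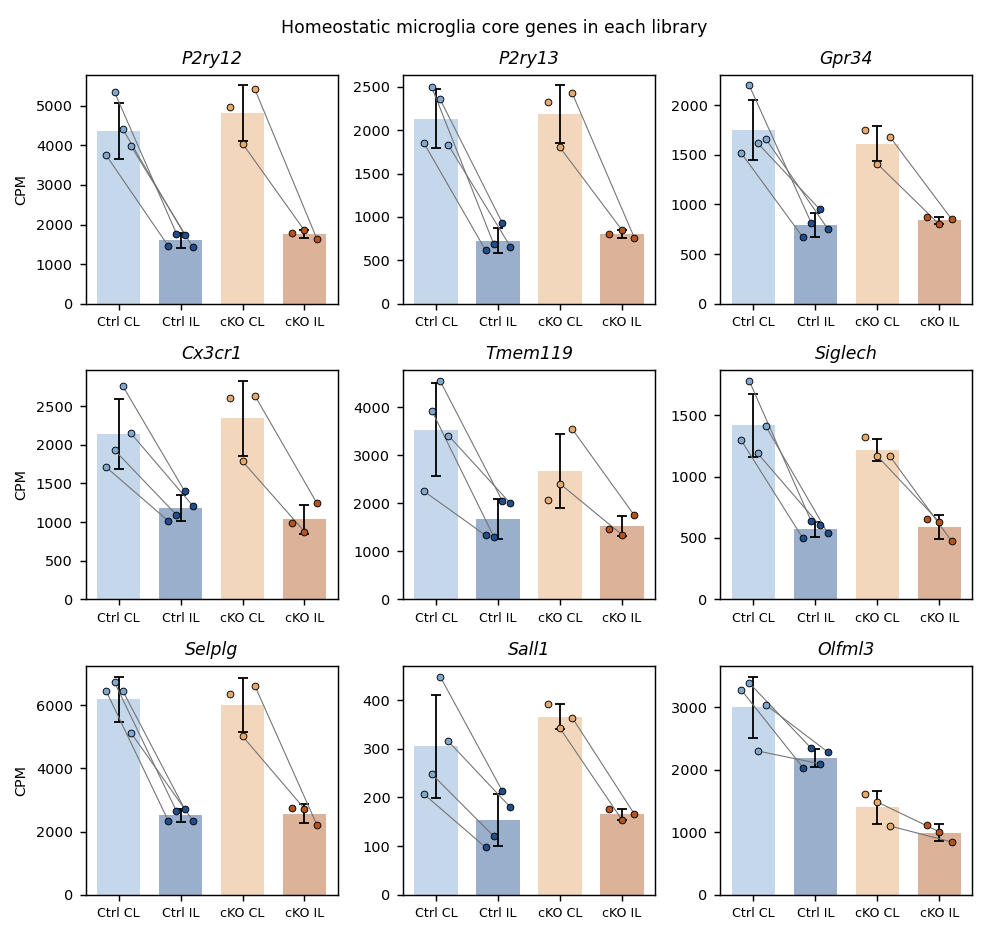
Level of each core gene in CPM (vertical axes, starting at 0) in the 4 groups. Points are libraries, bars are group means, error bars are SD, and grey lines join the hemispheres of the same mouse. All lines slope down from CL to IL, and for *Olfml3* the 6 cKO libraries lie below the 8 Ctrl libraries.

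The first comparison asks how these genes differed between the injured and the other hemisphere of Ctrl mice. Of the 9 genes, 7 were called lower in IL and 0 higher, a call being an adjusted p at or under 0.05 with at least a 1.2-fold change. Of all 16376 genes tested, 3.33% were called lower. The levels of the 7 in every IL library were below those in every CL library, which held for 11.4% of all genes tested. The median log2 fold change of the 9 was -1.04, against -0.028 over all genes. This fit had no mouse term, although the libraries are pairs from the same mice. With the mouse as a fixed block 8 of the 9 were called lower. Calls over all genes in either direction then went from 1231 to 3349. In bulk RNA, fewer microglia among the sorted cells and less of a message per microglia cannot be told apart.

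The ADP receptors had the most negative estimates, with intervals that overlapped those of other core genes. *P2ry12*, the ADP receptor that directs microglial processes towards injury, measured 3747, 5347, 4409.9 and 3982 CPM in Ctrl CL and 1461, 1769.8, 1736 and 1423 CPM in Ctrl IL. The lowest CL value was over the highest IL value by more than the whole range within IL, and the mean IL level was 36.5% of the mean CL level (log2 fold change -1.36, SE 0.18, adjusted p = 0.00261). *P2ry13*, another ADP receptor, measured 1856, 2492, 2354 and 1826 CPM in CL and 616, 683, 935 and 659 CPM in IL. It had the most negative fold change of the core genes (log2 fold change -1.48, SE 0.17, adjusted p = 0.00133), a 2.79-fold lower level. *Gpr34*, a receptor for lysophosphatidylserine, measured 1521, 2200.2, 1619.8 and 1661 CPM in CL and 668, 813, 955 and 755 CPM in IL. The groups did not overlap, and the level was 2.06-fold lower (log2 fold change -1.04, SE 0.17, adjusted p = 0.00630).

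*Cx3cr1*, the receptor for neuronal fractalkine, had the smallest estimate among the 7. It measured 1709.8, 1932, 2764 and 2149 CPM in Ctrl CL and 1016, 1094, 1398 and 1208 CPM in Ctrl IL, and mouse 3546 was highest in both hemispheres. The highest IL library stood below the lowest CL library, and the level was 1.69-fold lower (log2 fold change -0.76, SE 0.16, adjusted p = 0.0182). *Cx3cr1* lost its call when Ctrl IL of mouse 3541, 3545 or 3551 was left out, with adjusted p of 0.0548, 0.0506 and 0.0576.

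Among the other surface proteins, *Selplg* encodes PSGL-1, the P-selectin ligand that other leukocytes carry too. It measured 6438, 6721, 6451 and 5119.9 CPM in CL and 2343, 2645, 2704 and 2340.2 CPM in IL, with no overlap (log2 fold change -1.21, SE 0.18, adjusted p = 0.00403). *Siglech* encodes a sialic acid-binding lectin that signals through the adaptor DAP12 (*Tyrobp*). Its levels were 1298, 1779.5, 1190.3 and 1409 CPM in CL and 496, 636, 606 and 539 CPM in IL, again without overlap (log2 fold change -1.22, SE 0.17, adjusted p = 0.00334). *Tmem119*, a membrane protein used as a microglial marker, measured 2253, 3923, 4545 and 3409 CPM in CL and 1329.8, 1299.9, 2055 and 1997 CPM in IL. Mouse 3541 had the lowest CL level, close to the upper IL libraries, and the fold change was less certain (log2 fold change -0.98, SE 0.22, adjusted p = 0.0270). Its call was lost when any of 6 single libraries was left out (Ctrl CL of mouse 3545, 3546 or 3551, or Ctrl IL of mouse 3541, 3545 or 3551), with adjusted p from 0.0517 to 0.0845.

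*Sall1* and *Olfml3* were not called in Ctrl. *Sall1*, the transcription factor, measured 207, 248, 449 and 315 CPM in CL and 97.5, 120.1, 214 and 180.0 CPM in IL. The groups overlapped because the IL level of mouse 3546 was above the CL level of mouse 3541, while mice 3546 and 3551 were the higher pair in both hemispheres (log2 fold change -0.91, SE 0.24, adjusted p = 0.0520). With the mouse as a block, *Sall1* was called, with the same log2 fold change of -0.91, SE 0.080 and adjusted p = 0.000665. *Sall1* was also called with no block in the fit of all 14 libraries (adjusted p = 0.00899), and without Ctrl CL of mouse 3541 (0.0408) or Ctrl IL of mouse 3546 (0.0193). *Olfml3* encodes a secreted glycoprotein of the olfactomedin family. It measured 3280.1, 3386, 2299.7 and 3038 CPM in CL and 2035, 2342, 2096 and 2284 CPM in IL. The CL level of mouse 3546 fell inside the IL range (log2 fold change -0.35, SE 0.19, adjusted p = 0.315), and the 95% interval of the log2 fold change ran from -0.78 to 0.066.

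In cKO mice, 8 of the 9 genes were called lower in IL than in CL and 0 higher, *Olfml3* being the gene not called. Of all 16758 genes tested, 10.8% were called lower. For the same 8 genes every IL library was below every CL library, which held for 24.3% of all genes tested. *P2ry12* measured 4979.6, 4046 and 5416 CPM in cKO CL and 1785, 1849 and 1639 CPM in cKO IL (log2 fold change -1.38, SE 0.19, adjusted p = 0.00362). The IL values were 2.60-fold lower and lay close together. *P2ry13* measured 2320.2, 1801 and 2423 CPM and 800.3, 850.1 and 762 CPM (log2 fold change -1.36, SE 0.16, adjusted p = 0.00239), and *Gpr34* 1749, 1409.6 and 1685 CPM and 872, 799.9 and 852 CPM (log2 fold change -0.87, SE 0.13, adjusted p = 0.00498).

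*Sall1* had the smallest p of the core genes in cKO. It measured 393, 343 and 364 CPM in CL and 177, 154 and 166 CPM in IL, a narrower spread than in Ctrl, and was 2.11-fold lower (log2 fold change -1.07, SE 0.10, adjusted p = 0.00195). *Cx3cr1* measured 2611, 1787 and 2637 CPM in CL and 988, 877 and 1245 CPM in IL (log2 fold change -1.10, SE 0.19, adjusted p = 0.00739). Mouse 791 was lowest in both hemispheres. *Selplg* measured 6362, 5016 and 6606 CPM and 2759, 2719 and 2211 CPM (log2 fold change -1.16, SE 0.22, adjusted p = 0.0104). *Siglech* measured 1323, 1167 and 1168 CPM and 655, 630.5 and 473 CPM (log2 fold change -1.002, SE 0.17, adjusted p = 0.00728). For both, the hemispheres stood well apart. *Tmem119* measured 2076, 2406 and 3541 CPM in CL and 1469, 1344 and 1749 CPM in IL (log2 fold change -0.72, SE 0.21, adjusted p = 0.0399). Its call did not survive the loss of cKO CL of mouse 791 or 3592, or of any cKO IL library, with adjusted p from 0.0585 to 0.134. It was also lost with no filter on low values (0.0851) and, without a mouse term, in the fit of all 14 libraries (0.0666). *Olfml3* measured 1613, 1483 and 1101 CPM and 1116, 1007 and 845 CPM. The IL library of mouse 784 was just above the CL library of mouse 3592 (log2 fold change -0.42, SE 0.20, adjusted p = 0.169), and without the latter *Olfml3* was called at an adjusted p of 0.0464.

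Within mice the direction was uniform. In the 6 mice with both hemispheres, all 54 ratios of an IL to a CL level were below 100%. *P2ry12* in IL was 33.1% to 39.4% of the CL level of the same mouse in the 4 Ctrl mice, and 45.7% and 30.3% in cKO mice 791 and 3592. *P2ry13* was 27.4% to 39.7% in Ctrl and 47.2% and 31.4% in the same cKO mice. *Sall1* was 47.0% to 57.1% in Ctrl and 45.1% and 45.7% in cKO mice 791 and 3592, although its CL level ranged from 207 to 449 CPM between Ctrl mice. *Olfml3* was the least reduced gene in every mouse, at 62.0% to 91.1% in Ctrl, and 67.9% and 76.7% in cKO.

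**Figure D2:**
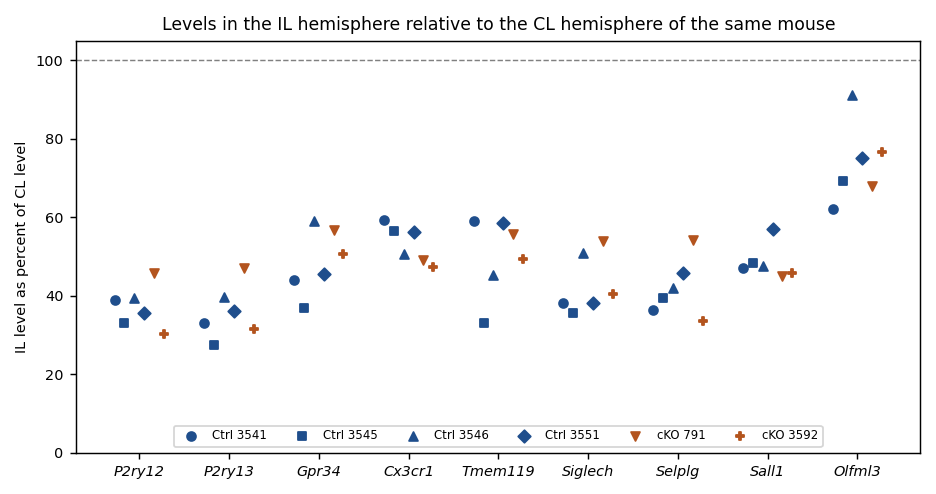
Level of each core gene in the IL hemisphere as a percent of its level in the CL hemisphere of the same mouse (vertical axis, from 0). Each symbol is one of the 6 mice with both hemispheres, 4 Ctrl (blue) and 2 cKO (orange), and the dashed line marks 100%. All symbols lie below the line, between 27.4% and 91.1%, with *Olfml3* nearest to it.

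Whether the hemisphere difference itself differed between genotypes was tested as an interaction over all 14 libraries. No core gene was called, and none of the 18476 genes tested was (0%), while 477 of them and 0 of the 9 had an unadjusted p under 0.05 in limma. The largest interaction among the 9 was that of *Cx3cr1*, at -0.36 on the log2 scale with a 95% interval from -0.88 to 0.16 (adjusted p = 0.9997). For *P2ry12* it was -0.036 with an interval from -0.61 to 0.54 and an SE of 0.27. With the mouse as a random block, 0 of the 9 and 4 of all genes were called, and the interaction of *P2ry12* was -0.026 with an SE of 0.21.

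**Figure D3:**
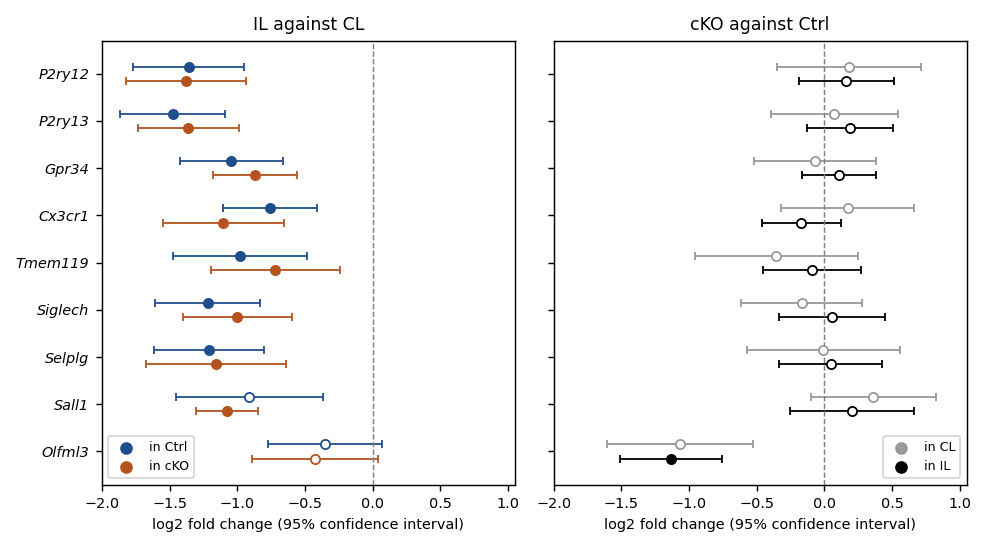
Log2 fold change of each core gene with its 95% confidence interval, for IL against CL in each genotype (left) and cKO against Ctrl in each hemisphere (right). Filled circles passed the call and open circles did not, and dashed lines mark no change. On the left the estimates lie between -1.48 and -0.35, and on the right only *Olfml3* has intervals that leave out 0.

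Some genes of the marker lists of other cells were called between the hemispheres as well. In the tests of all genes, 4.18% were called higher and 3.33% lower in Ctrl IL, and 12.3% higher and 10.8% lower in cKO IL. The summed level of 12 infiltrating monocyte genes was 163 to 987 CPM in Ctrl CL and 654 to 926 CPM in Ctrl IL, and 142 to 396 CPM in cKO CL and 614 to 844 CPM in cKO IL. In Ctrl, 4 of the 12 were called higher in IL and 0 lower, among them the matrix gene *Fn1* (27.4 ± 8.50 to 457 ± 213 CPM, SD, n = 4) and the chemokine receptor *Ccr2* (35.4 ± 4.39 to 73.8 ± 13.9 CPM). In cKO, 6 were called higher and 0 lower. The 11 neutrophil genes summed to 1447 to 9011 CPM in Ctrl CL and 917 to 1553 CPM in Ctrl IL, with 0 called by limma in either direction but 7 lower at an unadjusted p under 0.05 (11.9% of all genes) and a median log2 fold change of -2.65. They summed to 1365 to 2518 CPM in cKO CL and 929 to 1174 CPM in cKO IL, with 6 called lower. Border-associated macrophage genes summed to 479.7 to 1079 CPM in Ctrl CL and 758 to 1584 CPM in Ctrl IL, with 2 of 10 called higher and 1 lower, and in cKO 2 were called higher. No gene of these lists was at 0 in all libraries. Their part in the fall of the core genes was not tested.

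The core genes also fell relative to the other microglia-enriched genes. The 9 together took 2.23% to 2.80% of all assigned reads in Ctrl CL and 1.01% to 1.27% in Ctrl IL, and 1.95% to 2.49% in cKO CL and 0.994% to 1.06% in cKO IL. Set against the summed level of 25 other microglia-enriched genes, they were 37.8% to 50.3% in Ctrl CL and 24.2% to 34.3% in Ctrl IL, without overlap. In cKO they were 38.0% to 51.9% in CL and 23.3% to 27.0% in IL. Of the 25, 7 were called lower in Ctrl IL (3.33% of all genes) and 0 higher, with a median log2 fold change of -0.53, and in cKO 9 were called lower (10.8% of all genes) and 0 higher, with a median of -0.53. The orphan receptor gene *Gpr165* fell in Ctrl from 32.4 ± 17.3 to 6.51 ± 4.76 CPM, the crystallin gene *Crybb1* from 186 ± 23.9 to 73.5 ± 28.7 CPM, the fructose transporter gene *Slc2a5* from 89.5 ± 25.8 to 34.3 ± 5.43 CPM, and *Entpd1*, the ectonucleotidase CD39, from 638 ± 88.8 to 312 ± 52.8 CPM (SD, n = 4).

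**Figure D4:**
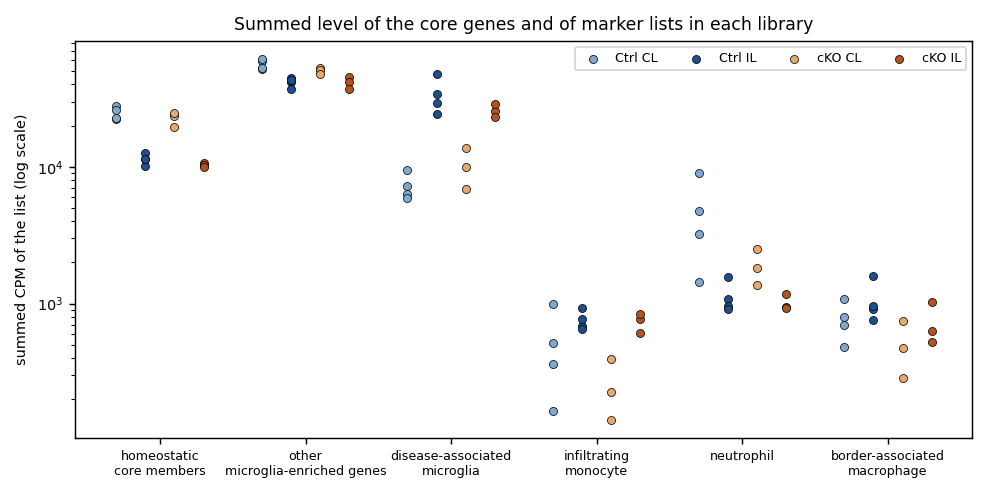
Summed level, in CPM on a log scale, of the 9 core genes and of 5 marker lists in each library, by group. The core genes lie at 22311 to 28029 CPM in Ctrl CL and 10061 to 12698 CPM in Ctrl IL, and the disease-associated genes lie higher in IL than in CL.

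Genes of the disease-associated microglial state, which reactive microglia turn on as homeostatic genes fall, were in part called higher. Of 15, 8 were called higher in Ctrl IL (4.18% of all genes) and 6 in cKO IL (12.3% of all genes), and 0 were lower. *Spp1*, which encodes osteopontin, rose in Ctrl from 494 ± 526 to 15058 ± 4221 CPM, and the lysosomal membrane gene *Gpnmb* from 47.6 ± 45.1 to 1363 ± 549.5 CPM (SD, n = 4). In cKO, *Spp1* rose from 1818 ± 1282 to 11494 ± 615 CPM and *Gpnmb* from 120.2 ± 126 to 616 ± 199 CPM (SD, n = 3). The summed list, *Spp1* included, lay between 5867 and 9518 CPM in Ctrl CL and between 24138 and 47764 CPM on the injured side. In cKO it lay between 6912 and 13711 CPM in CL and between 23072 and 28849.9 CPM in IL.

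Of 20 regulators of microglial identity, 1 was called lower in Ctrl IL and 0 higher, and 9 were called lower in cKO IL and 0 higher. Over all genes 3.33% were called lower in Ctrl and 10.8% in cKO, so the counts of the 2 genotypes have different backgrounds, and 0 of the 20 were called for the interaction. The median log2 fold changes were -0.12 and -0.33. The gene called in both was *Tgfbr1*, a receptor subunit for TGF-β, which measured 1108 ± 343 CPM in Ctrl CL and 526 ± 209 CPM in Ctrl IL (log2 fold change -1.01, SE 0.25, adjusted p = 0.0383), and 1166 ± 26.6 CPM in cKO CL and 510.0 ± 51.5 CPM in cKO IL (log2 fold change -1.13, SE 0.10, adjusted p = 0.00195). In cKO the transcription factor genes *Maf* (91.1 ± 19.5 to 49.4 ± 8.58 CPM) and *Mef2c* (514 ± 54.6 to 283 ± 8.93 CPM) and the TGF-β inhibitor gene *Smad7* (179 ± 10.5 to 110.0 ± 12.8 CPM) also fell. *Spi1*, the gene of PU.1, had a log2 fold change of 0.064 with an SE of 0.14 in Ctrl (adjusted p = 0.873).

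The ligands, adaptors and neighbours of the core genes were mixed. Of 18, 4 were called higher and 2 lower in Ctrl IL, and 6 higher and 2 lower in cKO IL. The shares of all genes were 4.18% higher and 3.33% lower in Ctrl and 12.3% higher and 10.8% lower in cKO, so 2 of 18 lower in cKO was near the background. *Selp*, which encodes P-selectin, the partner of PSGL-1, rose in Ctrl from 0.528 ± 0.534 to 12.3 ± 4.47 CPM, and *Nt5e*, the ectonucleotidase CD73, from 2.08 ± 1.22 to 16.5 ± 5.88 CPM. *P2rx4*, an ATP-gated channel gene, rose from 85.9 ± 5.85 to 134 ± 24.8 CPM, and *Gpr171*, a receptor gene near *P2ry13*, from 4.24 ± 0.798 to 9.69 ± 2.44 CPM. *Entpd1*, which makes AMP from ATP and ADP and so lowers the ligand of the P2Y receptors, fell, as did *Med12l*, the gene around *P2ry12* and *P2ry13*, from 42.0 ± 17.0 to 17.1 ± 5.75 CPM (SD, n = 4 throughout). The same 4 higher and 2 lower genes were called in cKO.

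The genotype comparisons ask whether the core genes differed between cKO and Ctrl mice on either side. In IL, 1 of the 9 was called, *Olfml3*, which was lower in cKO. Of all 16919 genes tested, 0.296% were called lower and 0.372% higher, and 10.3% did not overlap between genotypes in either direction. In CL, 0 of the 9 were called by limma and 1, *Olfml3* again, had an unadjusted p under 0.05. Of all 16603 genes tested, 0.367% were called lower and 0.536% higher, and 9.99% did not overlap. The median log2 fold change of the 9 was 0.054 in IL and -0.0095 in CL.

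*Olfml3* measured 2035, 2342, 2096 and 2284 CPM in the IL hemispheres of Ctrl mice and 1116, 1007 and 845 CPM in those of cKO mice. The highest cKO library was below the lowest Ctrl library, and the mean cKO level was 45.2% of the Ctrl level (log2 fold change -1.13, SE 0.17, adjusted p = 0.0241). In CL it measured 3280.1, 3386, 2299.7 and 3038 CPM in Ctrl and 1613, 1483 and 1101 CPM in cKO. Here too no libraries overlapped, and the mean cKO level was 46.6% of the Ctrl level (log2 fold change -1.07, SE 0.24, adjusted p = 0.0940). The call in IL was lost when any single library other than Ctrl IL of mouse 3546 was left out, with adjusted p from 0.0590 to 0.124 and log2 fold changes from -1.24 to -0.98. In fits of all 14 libraries *Olfml3* was called in CL as well, at an adjusted p of 0.0162, or 0.00926 when the mouse entered as a random term. The interaction of *Olfml3* was -0.086 with a 95% interval from -0.73 to 0.56.

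**Figure D5:**
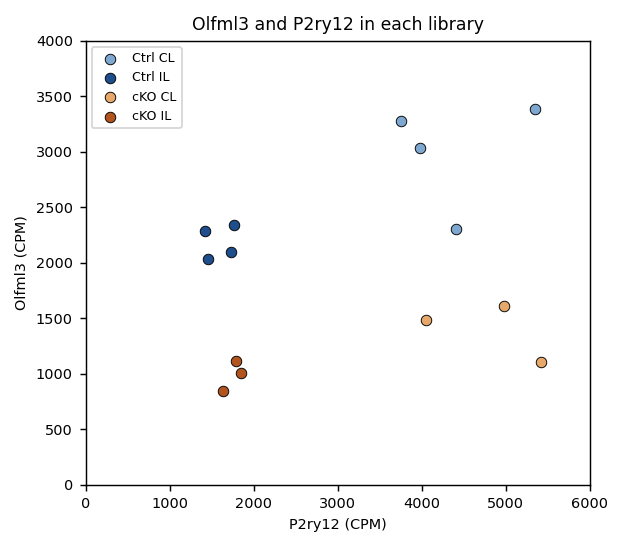
Level of *Olfml3* (vertical axis) against that of *P2ry12* (horizontal axis), both in CPM from 0, in each of the 14 libraries, coloured by group. *P2ry12* separates CL from IL libraries, and *Olfml3* separates cKO (845 to 1613 CPM) from Ctrl (2035 to 3386 CPM).

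Other genes near *Olfml3* also differed between genotypes. Within 5 Mb on either side, 4 of 120 genes tested were called in IL (3.33%, against 0.668% of all genes), namely *Syt6* and *Sycp1*, which were higher in cKO, and *Zfp697* and *Capza1*, which were lower. In CL 5 of 115 other genes there were called (4.35%, against 0.903%), these and *Tspan2*. *Syt6*, the synaptotagmin gene next to *Olfml3*, had a log2 fold change of 2.02 with an SE of 0.24 in IL (adjusted p = 0.00863), and *Capza1*, an actin capping subunit, one of -1.65 with an SE of 0.12 (adjusted p = 0.000655). Around *P2ry12* and *P2ry13* 0 of 46 genes were called in IL and 0 of 48 in CL, and around *Tmem119* and *Selplg* 2 of 118 (1.69%) and 4 of 121 (3.31%). Around *Sall1* 0 of 88 were called in IL and 3 of 90 in CL (3.33%), around *Cx3cr1* 0 of 98 and 1 of 99, and around *Siglech* and *Gpr34* 0. Shares above that of all genes were thus not particular to *Olfml3*. These windows and the genes named from them were looked at after the values of *Olfml3* were seen. Among the 25 other microglia-enriched genes, 1 was called lower in cKO IL (0.296% of all genes) and 2 in cKO CL (0.367% of all genes). *Fcrls*, an Fc receptor-like gene, was lower in both (in IL 3371 ± 221 CPM in Ctrl and 422 ± 64.9 CPM in cKO, SD, n = 4 and 3), and *Crybb1* was lower in CL.

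For the other 8 genes the intervals bound the difference between genotypes. In IL, the log2 difference of *P2ry12* was 0.16 with a 95% interval from -0.19 to 0.51, that of *Tmem119* -0.091 from -0.46 to 0.27, and that of *Cx3cr1*, whose promoter drives the Cre, -0.17 from -0.46 to 0.12. In CL, *Sall1* had a log2 difference of 0.36 from -0.10 to 0.83, and *Tmem119* one of -0.36 from -0.96 to 0.25. All 8 overlapped between genotypes in both hemispheres, with adjusted p from 0.610 to 0.992. Of the regulators, *Smad7* was called higher in cKO CL (73.0 ± 30.8 CPM in Ctrl and 179 ± 10.5 CPM in cKO, adjusted p = 0.0248). Of the partners and of the disease-associated, infiltrating monocyte, neutrophil and border-associated macrophage genes, 0 were called between genotypes by limma. At an unadjusted p under 0.05, 5 of the 15 disease-associated genes were higher and 3 lower in cKO IL, against 5.32% and 3.91% of all genes, and 4 were higher in cKO CL, against 5.82%. In CL, 4 of 11 neutrophil and 4 of 10 border-associated macrophage genes were lower at that p, against 4.35% of all genes. For each of these lists the other counts were 0 to 2, with 1 of 18 partners and 1 of 12 infiltrating monocyte genes in each hemisphere. There were also 0 neutrophil and 2 border-associated macrophage genes in IL. Of the 20 regulators, 4 were higher in cKO CL at that p, and 2 were higher and 1 lower in cKO IL. Of the lists of other cells and of dissociation, the oligodendrocyte gene *Mobp* was called lower in cKO CL (13.6 ± 4.39 CPM in Ctrl and 3.49 ± 1.24 CPM in cKO, adjusted p = 0.0465), and *Nr4a1*, an immediate early transcription factor gene, higher (542 ± 113 and 994 ± 93.7 CPM, adjusted p = 0.0458). At an unadjusted p under 0.05 in limma, 4 of 6 oligodendrocyte genes were lower in cKO CL, against 4.35% of all genes (median log2 fold change -0.72). In IL 0 of the 6 passed that p. Of 4 T and NK cell genes tested, 2 were lower in CL and 0 in IL. Of 12 dissociation response genes, 3 were higher and 2 lower in each hemisphere. Endothelial, astrocyte, neuronal and B cell genes counted 0 or 1 a list and direction.

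The genes did not vary together to the same degree among libraries of one group. After subtraction of group means, *P2ry12* varied with *Gpr34* (Pearson r = 0.86 over 14 libraries), *Selplg* (0.84) and *P2ry13* (0.84), while *Cx3cr1* and *Sall1* varied together (0.55), as did *Tmem119* and *Sall1* (0.54). *Olfml3* varied with *Siglech* (0.81) and opposite to *Tmem119* (-0.69) and *Cx3cr1* (-0.58). Over the 36 pairs the median was 0.33. These values describe 14 libraries that share mice and scaling factors, and no test was made of them.

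Genes whose pattern over the 14 libraries was most like the mean of the 9 core genes, by Pearson r of log2 values, were sought among 6960 other genes with a mean of at least 20 CPM. The libraries fall into CL and IL, so r mostly measures the hemisphere difference, and 210 genes had an r above 0.9. The 10 highest were *Cd164* (r = 0.989), *Stambpl1*, *Prkab1*, *Rab39*, *Scamp2*, *Zfp658*, *Gimap6*, *Rab33b*, *St3gal6* and *Chn2* (0.971). *Cd164*, which encodes a sialomucin, measured 696 ± 99.7 CPM in CL and 281 ± 33.4 CPM in IL of Ctrl mice, and 620.3 ± 67.6 CPM in CL and 275 ± 11.6 CPM in IL of cKO mice. *Gimap6*, a GTPase gene of the immune system, measured 62.2 ± 8.45, 17.9 ± 4.56, 65.5 ± 11.1 and 20.01 ± 3.71 CPM in the same order. The 5 most opposite patterns were those of *Adam9* (r = -0.990), *Lrrc59*, *Coro1c*, *Chst1* and *Itga5* (-0.972). *Adam9*, a membrane protease gene, measured 101 ± 19.96, 221 ± 24.3, 109 ± 11.7 and 221 ± 26.5 CPM. *Itga5*, the fibronectin receptor subunit, measured 43.7 ± 4.01, 111 ± 2.42, 45.8 ± 9.49 and 128 ± 19.0 CPM. Of the core genes, *P2ry13* was closest to the mean of the other 8 (r = 0.973) and *Olfml3* farthest (r = 0.268).

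Lists of lymphoid and non-immune cells were low, and that of the response to dissociation was mixed. The summed level was 3.88 to 18.8 CPM for 8 T and NK cell genes, 16.1 to 43.4 CPM for 4 B cell genes, 2.48 to 20.3 CPM for 5 neuronal genes, 69.5 to 159 CPM for 5 endothelial genes, 117 to 218 CPM for 6 astrocyte genes and 176 to 310.4 CPM for 6 oligodendrocyte genes. Between IL and CL in Ctrl, 3 of 4 T and NK cell genes tested were called lower (*Nkg7*, *Gzma* and *Klrb1c*, all of cytotoxic cells), and the astrocyte genes *Gfap* higher (9.42 ± 3.67 to 33.9 ± 9.40 CPM) and *Slc1a3* lower (174 ± 10.7 to 73.5 ± 7.38 CPM). In cKO, 0 of 6 T and NK cell genes tested were called by limma and 0 had an unadjusted p under 0.05. *Gfap* was higher (7.81 ± 3.32 to 31.1 ± 10.4 CPM) and *Slc1a3* lower (156 ± 17.1 to 84.97 ± 14.8 CPM) there too, and the endothelial gene *Kdr* (16.04 ± 4.31 to 37.1 ± 8.40 CPM) and *Mobp* (3.49 ± 1.24 to 7.89 ± 1.54 CPM) were called higher (SD, n = 3). Of 12 dissociation response genes, which cells induce during enzymatic isolation, 1 was called higher and 1 lower in Ctrl IL, and 1 higher and 4 lower in cKO IL, where the shares of all genes were 4.18% higher and 3.33% lower in Ctrl and 12.3% higher and 10.8% lower in cKO, so that counts of 1 are near the background. That list summed to 30461 to 39922 CPM in Ctrl CL and 22595 to 26055 CPM in Ctrl IL, and to 35107 to 47976 CPM in cKO CL and 24209.9 to 28266 CPM in cKO IL, so it was lower where the core genes were lower, and its part in their difference was not tested.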

How the data were processed

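The labels give tamoxifen treatment, sorting of CD11b+ cells with magnetic beads and Smart Seq v4 libraries, which were sequenced paired-end. Per the labels, the submitters' processing notes name STAR, Partek 8.0 and mm10 (GRCm38). The authors deposited values named raw counts for 33939 genes, but each library sums to 1e+06, so the deposited values were read as CPM. Of values under 100 reads, 78.5% to 83.5% per library were whole multiples of a step within 0.03. That step gave the depth, and the rest are fractions, so no count model was used, although the design had named one for whole counts. The authors' tables of comparisons of genotypes, with p-values and fold changes, were not used.

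CPM were divided by unweighted trimmed mean of M-values factors (30% and 5% trimmed), and limma 3.58.1 in R 4.3.3 was fitted to log2(CPM + 1), so fold changes are on that scale and understate those of low genes. Genes entered that reached the CPM of 10 reads at median depth (0.288 to 0.353 CPM) in at least the number of libraries of the smaller group. Moderation was empirical Bayes with a trend, and the Benjamini-Hochberg adjustment ran over all tested genes. Unless a block is named, the fits had no mouse term. The script was tested on simulated data. Levels in CPM are as deposited, with 33802 identifiers matched to GENCODE M21 for lengths. Python 3.11.15 with pandas 2.3.3, numpy 2.4.6 and matplotlib 3.10.9, and blastn 2.17.0, did the other steps.

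Mouse numbers in the labels pair the hemispheres. In deviations from group means across genes, the 6 same-mouse pairs correlated at 0.184 to 0.603, and 19 other pairs at -0.530 to 0.499 (median -0.216), so the ranges overlapped. The positive other pairs in Ctrl lay within 2 sets of mice (3541 and 3545, and 3546 and 3551). Numbers 784 and 788 may stand for the same animal. They were taken as different animals, and their libraries correlated at 0.180. The members and lists were chosen with earlier results of these data known. The text names the 9 members, up to 4 genes per list and direction by size of change, and the 10 most and 5 least like patterns. The level of the targeted gene is not reported here. *Itgam*, *Spi1* and genes near *Olfml3* were added after values were seen. Other scalings, pseudocounts, filters, fits and thresholds, and leaving out each library, were tried.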

Additional observations from a re-analysis of the deposited data

How the results depend on the processing

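Under other scalings (upper quartile, median-ratio, none), pseudocounts of 0.5 and 0.1, the stricter filter, the adjusted p alone and a 2-fold threshold, the count of called core genes stayed within 1.5 times the value given in each comparison. With no filter beyond 1 read in total, 4 were called between IL and CL in Ctrl and 0 between genotypes in IL, and the cause was not tested. In cKO 7 were called then, *Tmem119* being lost (adjusted p 0.0851). *Tmem119*, *Cx3cr1* and *Selplg* then missed the threshold in Ctrl (adjusted p 0.0969, 0.0787 and 0.0606). Leaving out each library in turn gave 5 to 8 called genes between hemispheres in Ctrl, 7 to 8 in cKO, 0 to 1 between genotypes in IL and 0 in CL, with 0 for the interaction. Over all genes, these fits called 571 (without Ctrl IL of mouse 3541) to 1660 genes between hemispheres in Ctrl, against 1231, and 1949 (without cKO IL of mouse 791) to 3629 in cKO, against 3870. Between genotypes they called 44 (without cKO IL of mouse 784) to 294 (without Ctrl IL of mouse 3546) in IL, against 113, and 67 (without cKO CL of mouse 791) to 161 in CL, against 150, so the shares of all genes called move with single libraries. In the fits of all 14 libraries, 1 gene (*Olfml3*) was called between genotypes in CL, both without a mouse term and with the mouse as a random replicate block. With the mouse as a fixed replicate block, 8 genes were called between hemispheres in each genotype, while the calls over all genes went from 1231 to 3349 in Ctrl and from 3870 to 2458 in cKO. In the fits of all 14 libraries, the random replicate block took the cKO count from 7 to 8, *Tmem119* passing (adjusted p 0.0666 without and 0.0104 with the block), and the interaction calls over all genes from 0 to 4. Beside *Tmem119* there and *Sall1* in Ctrl under the fixed block, the block changed no call of a core gene. Differences that were not called changed sign under some settings. For *Selplg* between genotypes in CL the value became 0.00074 with median-ratio scaling, 0.022 with at least 10 reads in every library and 0.0090 in the joint fit with a random mouse term. For the interaction of *P2ry12* it became 0.0012 without further scaling and 0.020 with no filter. With single libraries left out, the ranges were *Siglech* -0.046 to 0.24, *Selplg* -0.029 to 0.19 for cKO against Ctrl in IL, and *P2ry13* -0.024 to 0.20, *Gpr34* -0.15 to 0.065, *Selplg* -0.12 to 0.11 for cKO against Ctrl in CL, and *P2ry12* -0.17 to 0.051, *P2ry13* -0.036 to 0.19, *Olfml3* -0.29 to 0.049, *Selplg* -0.089 to 0.17 for the interaction. The lowest level of a core gene in any library was 97.5 CPM (*Sall1*, Ctrl IL of mouse 3541), where 1 read was worth 0.0284 CPM, so depth limited none of these values.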
